A study of Mus musculus with 9 samples.

Results

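The genes described here encode the machinery that assembles antigen receptor genes: the recombinase subunits Rag1 and Rag2, the template-independent polymerase terminal deoxynucleotidyl transferase (TdT, gene Dntt), and the end-joining factors Dclre1c, Prkdc, Xrcc4, Xrcc5 and Xrcc6. The 8 genes were chosen by name and found by Ensembl identifier among the 50686 genes counted in each library. mRNA was sequenced from BCR/ABLp185+ cells, which are mouse bone marrow cells made leukemic with a retrovirus that carries the p185 form of the BCR/ABL fusion kinase. There was 1 wt line, 1 Stat5a-/- line and 1 Stat5b-/- line, all labelled C57BL/6N, and 3 libraries were sequenced per line. BCR/ABLp185 was therefore common to all groups, the controls included, and the knockout lines lacked either the Stat5a or the Stat5b gene, which encode close relatives of the same transcription factor. The study asked how the loss of each of them alters BCR/ABL-driven leukemia. The 3 libraries of a line were technical replicates, so that each p-value below measures the spread between libraries of 1 line, and a difference between genotypes cannot be told apart from a difference between lines.

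V(D)J recombination cuts and rejoins the gene segments of immunoglobulin and T cell receptor loci in developing lymphocytes. RAG1 and RAG2 form the endonuclease that cuts next to the segments and leaves hairpin-sealed ends. Ku, made of the products of Xrcc6 (Ku70) and Xrcc5 (Ku80), holds the ends and recruits the kinase DNA-PKcs (Prkdc), which activates the nuclease Artemis (Dclre1c) to open the hairpins. TdT adds nucleotides that no template encodes, and XRCC4 joins the ends together with DNA ligase IV. The Rag genes and Dntt are largely restricted to lymphoid precursors, whereas the end-joining genes serve DNA repair in most cells. In B cell precursors, Rag transcription falls while the cells divide and returns as they rest.

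Rag1 and Rag2 lie tail to tail on chromosome 2 of GRCm38, Rag1 (ENSMUSG00000061311.6) at chr2:101638282-101649501 on the minus strand and Rag2 (ENSMUSG00000032864.4) at chr2:101624718-101632529 on the plus strand. The ends of the 2 genes are 5753 bp apart, and each has a single coding exon, of 3120 bases in Rag1 and 1581 bases in Rag2. Dntt (ENSMUSG00000025014.12) has 12 exons at chr19:41029275-41059523 on the plus strand. These 3 genes differed most between the lines, so the 250 bases upstream of their gene starts are shown, from RefSeq (GRCm38.p6), 5′ to 3′. The Rag1 window is chr2:101649533-101649782 (minus strand), the Rag2 window chr2:101624462-101624711 (plus strand) and the Dntt window chr19:41029025-41029274 (plus strand). Capitals mark matches to any of 6 motifs searched on both strands.
Rag1: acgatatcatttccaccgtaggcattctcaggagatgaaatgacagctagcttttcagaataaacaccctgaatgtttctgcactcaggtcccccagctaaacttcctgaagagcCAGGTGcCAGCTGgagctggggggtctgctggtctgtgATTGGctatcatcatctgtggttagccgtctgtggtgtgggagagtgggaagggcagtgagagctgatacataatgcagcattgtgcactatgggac
Rag2: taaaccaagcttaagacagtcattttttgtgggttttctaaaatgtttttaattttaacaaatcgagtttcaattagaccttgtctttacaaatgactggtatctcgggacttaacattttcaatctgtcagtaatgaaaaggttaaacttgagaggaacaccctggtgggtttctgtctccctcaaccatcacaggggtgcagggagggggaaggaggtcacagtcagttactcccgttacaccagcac
Dntt: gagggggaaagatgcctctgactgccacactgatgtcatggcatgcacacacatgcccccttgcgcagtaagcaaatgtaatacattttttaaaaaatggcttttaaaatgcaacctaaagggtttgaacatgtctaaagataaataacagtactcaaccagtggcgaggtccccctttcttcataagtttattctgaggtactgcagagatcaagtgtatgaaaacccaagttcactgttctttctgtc

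The motifs were TTCNNNGAA (the STAT5 site, in 7.02% of 32851 RefSeq windows of 250 bases), the E boxes CAGGTG (17.2%) and CAGCTG (13%), GTAAACA (the FOXO site, 3.17%), the CCAAT box (33.8%) and TATAAA (12.4%). No motif match overlapped another in the printed windows. The Rag1 window held CAGGTG at 135 to 130 bases upstream of the gene start, CAGCTG at 128 to 123, and a CCAAT box read on the other strand at 97 to 93. The Rag2 and Dntt windows held 0 matches to these letters. A window was found for 7 of the 8 genes, Prkdc being the exception. Dclre1c held 2 CAGCTG and 3 CCAAT boxes, Xrcc5 held 1 CCAAT box, and Xrcc4 and Xrcc6 held 0 matches. A match is a description of the letters and was not measured as a bound site.

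Library totals ranged from 11948136 to 19016396 counted reads. Stat5a was lowest in the Stat5a-/- libraries, at 11.8 to 13.6 normalized CPM (CPM, the count scaled to the library total, here after TMM scaling between libraries) against 36.0 to 48.2 in wt, and Stat5b was lowest in the Stat5b-/- libraries, at 58.5 to 72.3 against 103 to 107. Each targeted gene was thus lowest in the line labelled for it, but reads remained on both, and the log2 fold change of Stat5b in Stat5b-/- was -0.73, less than 2-fold. Whether these reads lie in the deleted part was not examined. The B-lineage markers Cd79a and Vpreb1 exceeded 1 normalized CPM in all 9 libraries. B-lineage markers shifted between the lines: Cd79a averaged 713, 1270 and 1514 normalized CPM, Vpreb1 128, 160 and 181, Ighm 1926, 4504 and 1479, and Il7r 374, 174 and 278 in wt, Stat5a-/- and Stat5b-/-. The summed myeloid markers ranged from 4.04 to 6.31 in wt, 4.88 to 6.43 in Stat5a-/- and 9.57 to 11.0 in Stat5b-/-, and the erythroid markers from 11.6 to 13.8, 12.4 to 14.7 and 3.02 to 3.66. Both sums rested mainly on 1 gene each. By line, in the same order, Lyz2 averaged 3.90, 4.25 and 8.23 normalized CPM, and Hbb-bt 11.1, 12.6 and 2.24. Only 1, 1 and 2 of the 10 myeloid markers exceeded 1 normalized CPM in every library of the line. Of the 6 erythroid markers, 1 did so per line. Neither sum therefore describes its marker list as a whole. The part of the marker shifts in the results below was not tested. The libraries also held T cell transcripts. The summed T cell markers ranged from 745 to 1069 normalized CPM in wt, 1143 to 1355 in Stat5a-/- and 1752 to 2577 in Stat5b-/-, and 16, 17 and 17 of the 18 markers exceeded 1 normalized CPM in every library of the line. Ptcra, the pre-T cell receptor chain of immature thymocytes, was at 0 in 7 libraries and reached 0.152 normalized CPM at most. In such bulk libraries, fewer cells of a type and less RNA per cell cannot be told apart.

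Rag1 and Rag2, the recombinase subunits, were abundant in the wt line and near 0 in both knockout lines. Rag1 had 1002, 1328 and 1098 reads in the wt libraries, 2, 3 and 1 in the Stat5a-/- libraries, and 7, 10 and 11 in the Stat5b-/- libraries. The wt libraries were alike, at 64.7 ± 2.06 normalized CPM (SD, n = 3), and no library of a knockout line came near them. Rag2 had 477, 744 and 512 reads in wt, 2, 0 and 1 in Stat5a-/-, and 7, 16 and 6 in Stat5b-/-. Its wt level was 32.5 ± 4.43 normalized CPM (SD, n = 3), against 0.0767 ± 0.0709 in Stat5a-/- and 0.677 ± 0.361 in Stat5b-/-. The 3 groups did not overlap for either gene, wt being highest and Stat5a-/- lowest.

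Pooled over the libraries of a line, 6 Rag1 reads remained in Stat5a-/- against 3428 in wt. Scaled to the TMM-adjusted library totals, wt was 407-fold higher, with a 95% counting interval of 187- to 1110.3-fold. In Stat5b-/-, 28 Rag1 reads remained, and wt was 98.0-fold higher (67.7- to 148-fold). For Rag2, 3 reads in Stat5a-/- stood against 1733 in wt, which was 412-fold higher (141- to 1998-fold). Stat5b-/- held 29 Rag2 reads, and wt was 47.9-fold higher (33.2- to 71.7-fold). These intervals are exact binomial intervals on pooled reads and cover counting error only. The reads thus set the wt excess over Stat5a-/- only to within several-fold, since so few remained.

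In the edgeR quasi-likelihood fit over 13852 genes, the log2 fold change of Rag1 was -8.59 in Stat5a-/- against wt (SE 0.22, adjusted p = 2.13e-11) and -6.59 in Stat5b-/- against wt (SE 0.18, adjusted p = 3.67e-11). For Rag2 it was -8.53 (SE 0.37, adjusted p = 1.35e-09) and -5.55 (SE 0.26, adjusted p = 2.94e-09), respectively. Both comparisons share the wt libraries. All 8 genes passed the low-count filter, but Rag1 and Rag2 did so only through the wt libraries, so that they had to differ once they were tested. Compared directly, residual levels were higher in Stat5b-/- than in Stat5a-/-, the log2 fold changes being 2.00 for Rag1 (SE 0.43, adjusted p = 0.00320) and 2.98 for Rag2 (SE 0.70, adjusted p = 0.00553). Whether these few reads came from expression in the knockout lines themselves was not tested. The pooled Rag1 level in Stat5b-/- was 415% of that in Stat5a-/- (counting interval 169% to 1227%), and that of Rag2 was 860.2% (267% to 4413%). This step was not past a test against a 2-fold change (adjusted p = 0.166 for Rag1 and 0.0566 for Rag2), and in a fit of the 2 knockout lines alone neither gene passed the filter. Without Stat5a-/- replicate 1, which held 2 of the 3 Rag2 reads of its line, the log2 fold change of Rag2 was 3.75 between the knockout lines (adjusted p = 0.0109) and -9.33 in Stat5a-/- against wt.

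Per kilobase of exon, the recombinase subunits stood at nearly equal levels in wt. Rag1 was at 9.79 ± 0.312 and Rag2 at 9.48 ± 1.29 RPKM (normalized CPM per kilobase, SD, n = 3), and the Rag1:Rag2 ratio ranged from 0.925 to 1.11. In Stat5b-/- the ratio from pooled reads was 0.5003. With 0.5 reads added to each count, the mean log2 ratio was 0.94 lower in Stat5b-/- than in wt, and the groups did not overlap (two-sided exact permutation p = 0.1, the smallest that 3 against 3 libraries can give; 0.3 adjusted over the 3 pairs of lines). Without added reads, a setting chosen after seeing the data, the groups overlapped, since the highest Stat5b-/- ratio was 0.950 and the lowest wt ratio 0.925 (log2 difference -0.94, exact permutation p = 0.2). In Stat5a-/-, where pooled reads gave a ratio of 1.04, the libraries scattered too widely for a comparison (exact permutation p = 1 against wt).

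**Figure D1:**
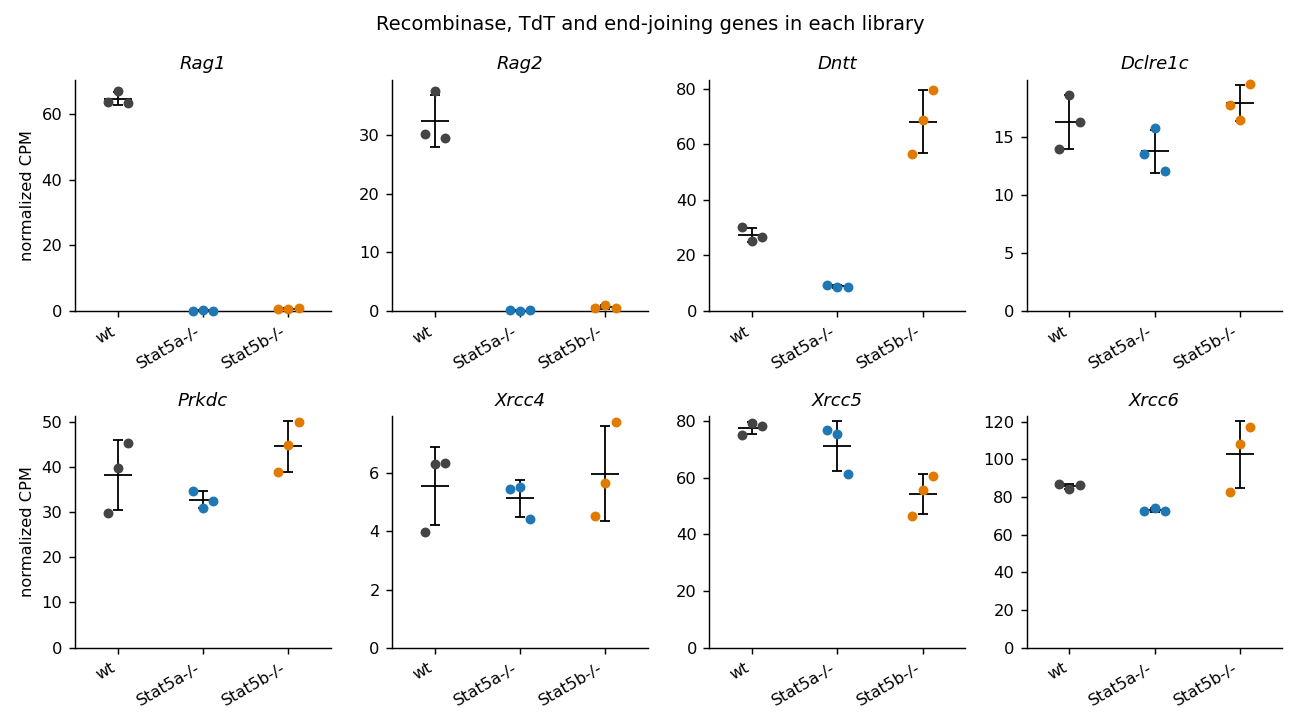
Normalized CPM of each of the 8 genes in each library (points), by line, with the mean (wide bar) and SD (error bar, n = 3), each axis starting at 0. Rag1 and Rag2 are near 0 in all 6 knockout libraries, Dntt falls into 3 separate groups from 8.46 to 79.5 normalized CPM, and the line means of each of the 5 end-joining genes are within 2-fold of one another.

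Dntt, which encodes TdT, went in opposite directions in the knockout lines. It was measured at 30.1, 25.3 and 26.7 normalized CPM in wt, at 9.44, 8.46 and 8.57 in Stat5a-/-, and at 56.6, 68.7 and 79.5 in Stat5b-/-. Every Stat5a-/- library lay below and every Stat5b-/- library above all wt libraries. Dntt was 3.09-fold lower in Stat5a-/- than in wt (log2 fold change -1.63, SE 0.15, edgeR adjusted p = 1.44e-06) and 2.496-fold higher in Stat5b-/- than in wt (log2 fold change 1.32, SE 0.13, adjusted p = 3.44e-06). The difference between the knockout lines, tested directly, was 7.71-fold (log2 fold change 2.95, SE 0.15, adjusted p = 7.75e-09). With 95 to 1044 reads per library, Dntt was counted well above the range in which single reads decide. Loss of Rag1 and Rag2 reads in Stat5b-/- was therefore accompanied by more, not fewer, reads on Dntt.

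The T cell marker sum given above was highest in Stat5b-/- and lowest in wt, and Dntt was highest in Stat5b-/- and lowest in Stat5a-/-. The sums of the lines did not overlap, so a fit with the sum as a covariate cannot separate it from the line. With that sum as a covariate, the log2 fold change of Dntt was -1.5 in Stat5a-/- (edgeR adjusted p = 1.22e-04) and 1.65 in Stat5b-/- (adjusted p = 0.0103) against wt. In the same fit, Rag1 was at -8.63 (adjusted p = 6.61e-09) and -6.69 (adjusted p = 6.74e-06). The changes of Rag2 were -8.56 (adjusted p = 2.28e-07) and -5.63 (adjusted p = 2.47e-04). Since Rag1 and Rag2 passed the low-count filter only through wt, these changes were set by that filter and are a description.

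The 5 end-joining genes differed little between the lines. Dclre1c (Artemis) was at 14.0, 18.6 and 16.2 normalized CPM in wt, 13.5, 15.7 and 11.99 in Stat5a-/-, and 17.7, 16.4 and 19.5 in Stat5b-/-. Prkdc (DNA-PKcs) was at 29.9, 39.8 and 45.2 in wt, 34.7, 30.9 and 32.5 in Stat5a-/-, and 38.8, 45.0 and 50.0 in Stat5b-/-. Xrcc4, the scaffold of DNA ligase IV, was at 3.998, 6.31 and 6.35 in wt, 5.45, 5.53 and 4.42 in Stat5a-/-, and 4.53, 5.67 and 7.77 in Stat5b-/-. For each of these genes both knockout lines overlapped wt. No fold change of the 3 against wt passed an adjusted p of 0.05, the values running from -0.24 (Dclre1c, SE 0.15, edgeR adjusted p = 0.222) to 0.22 on the log2 scale (Prkdc, SE 0.15, adjusted p = 0.250). Without wt replicate 1, Prkdc was at -0.38 in Stat5a-/- (adjusted p = 0.0457). Xrcc4 was counted with only 49 to 125 reads per library, and its SE of 0.23 against wt leaves smaller changes undetectable at this depth.

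Of the Ku subunits, Xrcc5 was lower in Stat5b-/- than in wt, and Xrcc6 did not pass the test against wt in either line in the fit used throughout, but did under some alternatives. Xrcc5 (Ku80) was at 75.1, 79.2 and 78.3 normalized CPM in wt, 76.9, 75.4 and 61.1 in Stat5a-/-, and 46.6, 55.8 and 60.4 in Stat5b-/-. Xrcc6 (Ku70) was at 86.7, 84.2 and 86.4 in wt, 72.7, 74.0 and 72.5 in Stat5a-/-, and 82.8, 108 and 117 in Stat5b-/-. Every Stat5b-/- library was thus below all others for Xrcc5, while for Xrcc6 the Stat5b-/- libraries overlapped wt, and all Stat5a-/- libraries lay below those of the other lines. Xrcc5 fell by 0.52 on the log2 scale in Stat5b-/- against wt (SE 0.12, edgeR adjusted p = 0.00352), less than 2-fold. The change of Xrcc6 was 0.26 in Stat5b-/- (SE 0.12, adjusted p = 0.0907) and -0.23 in Stat5a-/- (SE 0.12, adjusted p = 0.153), and that of Xrcc5 in Stat5a-/- was -0.12 (SE 0.12, adjusted p = 0.464). Without Stat5b-/- replicate 1, the lowest of its line, Xrcc6 passed the adjusted p in Stat5b-/- (log2 fold change 0.37, adjusted p = 0.00771) and in Stat5a-/- (-0.25, adjusted p = 0.0333). In a fit of wt and Stat5a-/- alone it also passed (-0.24, adjusted p = 0.0454).

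The Xrcc6:Xrcc5 ratio per kilobase, which does not depend on the scaling of libraries, was 0.632 ± 0.0264 in wt, 0.592 ± 0.0739 in Stat5a-/- and 1.08 ± 0.0526 in Stat5b-/- (SD, n = 3). In log2 it was 0.77 higher in Stat5b-/- than in wt and 0.87 higher than in Stat5a-/-. The Stat5b-/- libraries overlapped neither other line (two-sided exact permutation p = 0.1 for both, the smallest possible, and 0.15 adjusted over the 3 pairs). Stat5a-/- and wt overlapped (log2 difference -0.10, exact permutation p = 0.4). Between the knockout lines, Xrcc6 was 0.49 higher on the log2 scale in Stat5b-/- (SE 0.12, edgeR adjusted p = 0.00687), Prkdc was 0.45 higher (SE 0.15, adjusted p = 0.0357) and Xrcc5 was lower by a log2 change of -0.39 (SE 0.12, adjusted p = 0.0243). The Prkdc call was lost without any Stat5a-/- library or without replicate 2 or 3 of Stat5b-/- (adjusted p from 0.0569 to 0.113), and the Xrcc5 call without replicate 1 or 2 of either line (0.0508 to 0.0849). With the T cell marker sum as a covariate, Xrcc5 in Stat5b-/- against wt was at -0.63 with an adjusted p of 0.238. Between the knockout lines, Dclre1c and Xrcc4 had log2 fold changes of 0.38 (SE 0.15, adjusted p = 0.0671) and 0.21 (SE 0.24, adjusted p = 0.526).

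**Figure D2:**
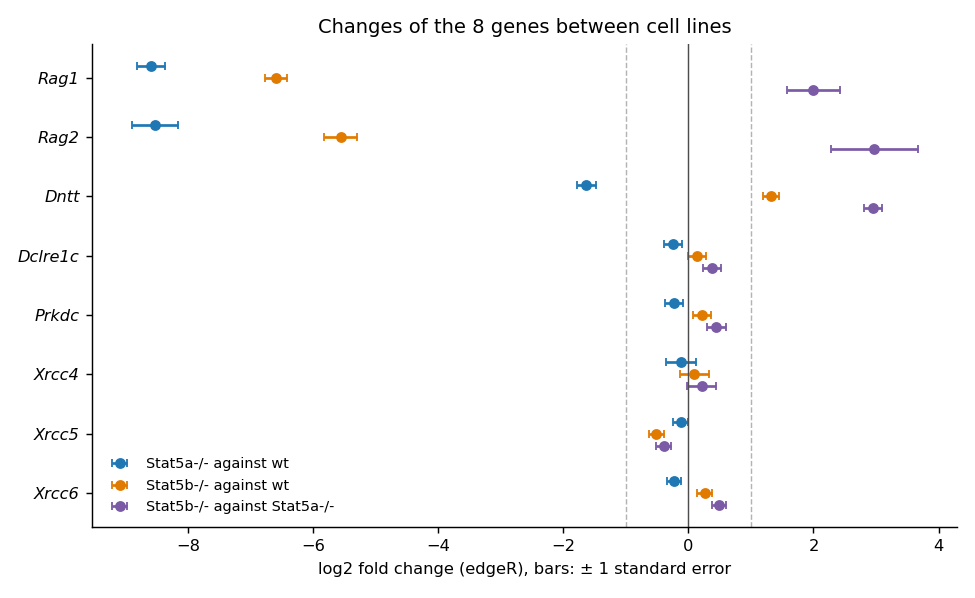
The log2 fold change (horizontal axis) of the 8 genes in the 3 comparisons between lines, with bars of 1 SE from edgeR and dashed lines at a 2-fold change. Rag1 and Rag2 lie between -8.59 and -5.55 against wt, Dntt lies on opposite sides of 0 in the knockout lines (-1.63 and 1.32), and all changes of the other 5 genes are within 2-fold.

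Counted at an adjusted p under 0.05 and a change above 2-fold, 3 of the 8 genes were lower and 0 higher in Stat5a-/- against wt (Rag1, Rag2 and Dntt), beside 6.49% lower and 7.75% higher of all genes tested. Since Rag1 and Rag2 passed the filter only through wt, their 2 calls against wt were set by that filter, and the count is a description. In Stat5b-/- against wt, 2 were lower (Rag1 and Rag2) and 1 higher (Dntt), beside 8.44% and 10.6% of all genes. In Stat5b-/- against Stat5a-/-, 3 were higher (the same 3 genes) and 0 lower, beside 4.81% and 6.60%. With the adjusted p alone, 3 were lower and 0 higher in Stat5a-/- (16.3% and 19.8% of all genes), 3 lower and 1 higher in Stat5b-/- (22.0% and 24.2%), and 1 lower and 5 higher between the knockout lines (17.5% and 16.4%). The median log2 fold change of the 8 genes was -0.24, 0.11 and 0.47 in the 3 comparisons, in that order, and the median of all tested genes was 0.01, 0.02 and 0.02.

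Ordered by RPKM, wt ran from Xrcc5 (30.3 ± 0.853) over Xrcc6 (19.2 ± 0.305), Dntt (12.9 ± 1.18), Rag1 and Rag2 to Prkdc (2.90 ± 0.590), Dclre1c (1.75 ± 0.248) and Xrcc4 (1.32 ± 0.320). The mean ± SD ranges of the neighbours Rag1 and Rag2 overlapped, as did those of Dclre1c and Xrcc4. In Stat5b-/- the top of the order changed to Dntt (32.1 ± 5.40), Xrcc6 (22.9 ± 3.97) and Xrcc5 (21.2 ± 2.76), and Rag2 (0.198 ± 0.105) and Rag1 (0.101 ± 0.0272) came last. There the mean ± SD ranges of Dntt and Xrcc6, of Xrcc6 and Xrcc5, and of Rag2 and Rag1 overlapped. In Stat5a-/-, Xrcc5 (27.9 ± 3.41) and Xrcc6 (16.3 ± 0.187) were followed by Dntt at 4.15 ± 0.252, and Rag1 (0.0239 ± 0.0119) and Rag2 (0.0224 ± 0.0207) were indistinguishable at the bottom.

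The genes around the recombinase locus were read next, to see how far the loss of reads extended. Traf6, a ubiquitin ligase of immune receptor signaling 28928 bp from Rag1, was the only other tested gene within 200 kb. It had a log2 fold change of -0.31 in Stat5a-/- (edgeR adjusted p = 0.0363) and -0.48 in Stat5b-/- (adjusted p = 0.00263), at mean levels of 117, 94.1 and 83.8 normalized CPM in wt, Stat5a-/- and Stat5b-/-. The fall of Traf6 was thus small beside that of Rag1 and Rag2. The gene B230118H07Rik at chr2:101560781-101649532 spans both Rag genes on the minus strand and shares 80 exon bases with Rag1 and 208 with Rag2. It had 10, 6 and 15 reads in wt, 1, 0 and 1 in Stat5a-/-, and 1, 0 and 0 in Stat5b-/-. It did not pass the filter. Reads were counted without regard to strand and dropped where genes overlap, so that the shared bases contribute to none of these genes.

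Around Dntt, 4 genes within 200 kb passed the filter. Blnk, the adaptor of B cell receptor signaling 34740 bp upstream, rose in both knockout lines (log2 fold change 0.61 in Stat5a-/-, edgeR adjusted p = 3.47e-04, and 0.55 in Stat5b-/-, adjusted p = 5.74e-04), and between them its change was -0.05 (adjusted p = 0.720). Ccnj was at 0.34 (adjusted p = 0.0460) and 0.11 (adjusted p = 0.504). Zfp518a was at -0.35 (adjusted p = 0.163) and -0.14 (adjusted p = 0.554). Tm9sf3 was at 0.27 (adjusted p = 0.0606) and -0.15 (adjusted p = 0.257), and its change between the knockout lines was -0.43 (Stat5b-/- lower, adjusted p = 0.00780), opposite to Dntt. None of the 4 was past 2-fold.

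**Figure D3:**
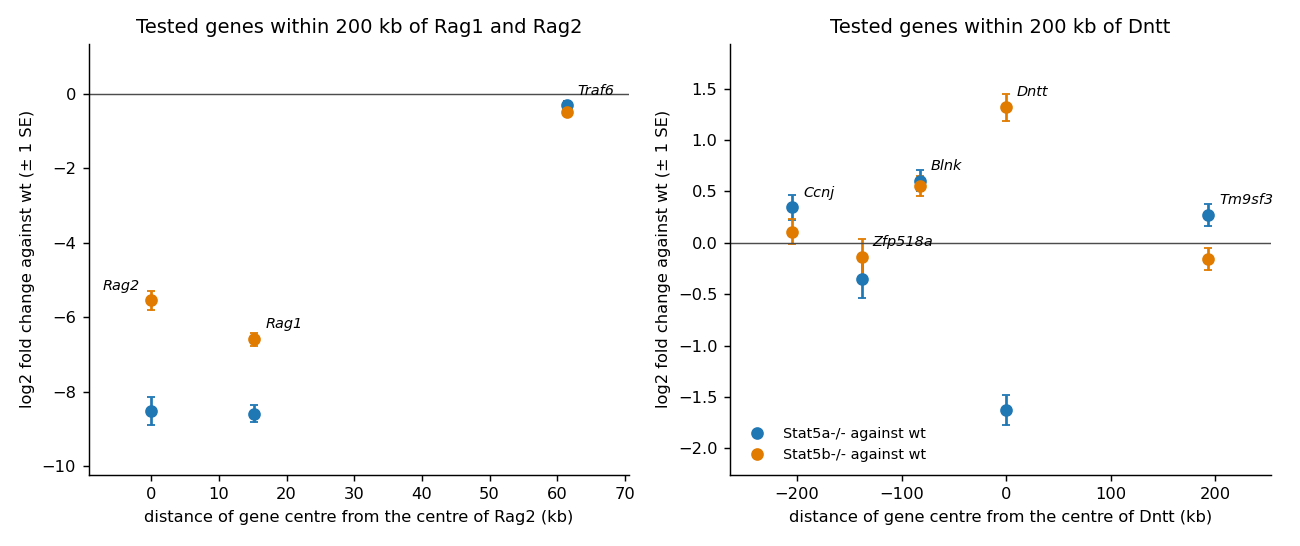
The log2 fold change against wt (vertical axis, bars of 1 SE) of the tested genes within 200 kb of the Rag pair (left) and of Dntt (right), by the distance between gene centres in kb. Stat5a-/- is blue and Stat5b-/- is orange. Traf6 is at -0.31 and -0.48, far above Rag1 and Rag2, and Blnk is at 0.61 and 0.55, on the same side of 0 in both lines, unlike Dntt.

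Of the end-joining genes, 3 overlap other genes, and their counts are uncertain to that extent. Xrcc6 (ENSMUSG00000022471.13, chr15:81987835-82040085) shares 344 exon bases with Desi1, which rose by log2 fold changes of 0.65 in Stat5a-/- (edgeR adjusted p = 1.29e-04) and 0.66 in Stat5b-/- (adjusted p = 9.27e-05). Dclre1c (ENSMUSG00000026648.18, chr2:3424131-3464130) shares 357 exon bases with Suv39h2, at -0.12 (adjusted p = 0.639) and -0.11 (adjusted p = 0.621). Xrcc4 (ENSMUSG00000021615.13, chr13:89774027-90089608) shares 112 exon bases with Tmem167, at -0.06 (adjusted p = 0.740) and 0.14 (adjusted p = 0.320). It also overlaps Gm4117 on the opposite strand, with 0 exon bases shared, and the small RNA gene Gm24498, which had 0 reads. Gm4117 fell by log2 changes of -3.31 in Stat5a-/- (adjusted p = 7.23e-05) and -2.43 in Stat5b-/- (adjusted p = 2.14e-04), from 23, 47 and 47 reads in wt to at most 8 in a knockout library. Like Rag1 and Rag2, Gm4117 passed the low-count filter only through wt, so that its fall was set by that filter. Prkdc (ENSMUSG00000022672.8, chr16:15637866-15842235) and Xrcc5 (ENSMUSG00000026187.8, chr1:72307421-72394952) overlap no other gene in the table.

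The partners of these genes in end joining were followed in a list of 8 (Lig4, Nhej1, Paxx, Poll, Polm, Polb, Hmgb1 and Hmgb2), all of them tested. Polm, which encodes DNA polymerase mu, the closest relative of TdT, was the gene of this list past both limits. It was at 19.2, 18.0 and 20.1 normalized CPM in wt, 25.4, 27.3 and 33.1 in Stat5a-/-, and 69.3, 71.1 and 52.6 in Stat5b-/-. The 3 lines did not overlap, and Polm was highest in Stat5b-/-, as was Dntt, but unlike Dntt it was above wt in Stat5a-/-. Its log2 fold change was 1.75 in Stat5b-/- (SE 0.14, edgeR adjusted p = 4.36e-07), 0.58 in Stat5a-/- (adjusted p = 0.00602) and 1.17 between them (SE 0.14, adjusted p = 3.05e-05). With the adjusted p alone, 4 of the 8 were higher and 1 lower in Stat5a-/- (19.8% and 16.3% of all genes tested), 3 higher and 0 lower in Stat5b-/- (24.2% and 22.0%), and 3 higher and 1 lower between the knockout lines (16.4% and 17.5%). The list's median log2 fold change was 0.37, 0.39 and 0.24 in the 3 comparisons.

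The 11 break-response genes (Atm, the Mre11a complex, H2afx, Trp53bp1 and their partners) and the 6 genes of alternative end joining (among them Parp1, Lig3 and Polq) were all within 2-fold in every comparison. With the adjusted p alone, 1 break-response gene was higher and 3 lower in Stat5a-/- (19.8% and 16.3% of all genes tested), 2 higher and 1 lower in Stat5b-/- (24.2% and 22.0%), and 1 higher and 0 lower between the knockout lines (16.4% and 17.5%). Of the alternative end-joining genes, 0 were higher and 2 lower in Stat5a-/-, 0 higher and 1 lower in Stat5b-/-, and 1 higher and 0 lower between them, beside the same shares of all genes. In the list of 8 genes for the turnover of RAG1 and RAG2 proteins, Skp2, the ubiquitin ligase subunit that targets RAG2 as cells enter S phase, was past both limits in Stat5a-/- against wt only. It stood at 78.0, 32.3 and 40.0 normalized CPM on average in wt, Stat5a-/- and Stat5b-/-, with log2 fold changes of -1.27 (SE 0.12, edgeR adjusted p = 1.91e-06) and -0.96 (SE 0.12, adjusted p = 1.87e-05) against wt. The fall in Stat5b-/- was under 2-fold, and between the knockout lines the change of Skp2 was 0.31 (SE 0.12, edgeR adjusted p = 0.0620). Of all genes tested, 6.49% were lower past both limits in Stat5a-/- against wt. The remaining 7 genes of this list were within 2-fold in every comparison. With the adjusted p alone, 0 of the 8 were higher and 2 lower in Stat5a-/-, 0 higher and 1 lower in Stat5b-/-, and 1 higher and 1 lower between the knockout lines. The shares of all genes at that limit are given above.

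Among 15 regulators of Rag transcription, 4 were past both limits in at least 1 comparison. Gfi1, a repressor in early lymphoid cells, had 59, 81 and 73 reads in wt, 657, 492 and 640 in Stat5a-/-, and 35, 9 and 20 in Stat5b-/-. The lines did not overlap in normalized CPM, Stat5a-/- being highest (mean 47.9) and Stat5b-/- lowest (1.51), with wt between them (4.02). Its log2 fold change was 3.57 in Stat5a-/- (SE 0.24, edgeR adjusted p = 9.61e-08), -1.41 in Stat5b-/- (SE 0.32, adjusted p = 0.00291) and -4.98 between the knockout lines (SE 0.28, adjusted p = 2.64e-08), the reverse of the order of Dntt. Its relative Gfi1b, for which repression of the Rag genes has been described, had 3179, 2975 and 3308 reads in wt, 80, 67 and 82 in Stat5a-/-, and 2620, 2593 and 1783 in Stat5b-/-. Gfi1b was low in Stat5a-/- (log2 fold change -4.89, SE 0.18, adjusted p = 3.43e-10) and differed from wt by -0.14 in Stat5b-/- (adjusted p = 0.450). Whether the level of either gene bears on Rag1 and Rag2 was not tested.

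Ikzf3 (Aiolos, a zinc-finger factor of B cell maturation) rose in both knockout lines, from 34.7 normalized CPM in wt to 198 in Stat5a-/- (log2 fold change 2.51, SE 0.13, edgeR adjusted p = 8.41e-09) and 226 in Stat5b-/- (2.70, SE 0.13, adjusted p = 4.16e-09). All 6 knockout libraries were above all wt libraries. Gadd45a, a stress-response gene linked to Rag induction, was at 5.54, 8.01 and 13.3 normalized CPM in wt, Stat5a-/- and Stat5b-/-, and past 2-fold only in Stat5b-/- against wt (log2 fold change 1.26, SE 0.17, adjusted p = 5.53e-05). With both limits, 2 of the 15 were higher and 1 lower in Stat5a-/- (7.75% and 6.49% of all genes tested), 2 higher and 1 lower in Stat5b-/- (10.6% and 8.44%), and 1 higher and 1 lower between the knockout lines (4.81% and 6.60%). With the adjusted p alone the counts were 4 and 3 (19.8% and 16.3%), 5 and 3 (24.2% and 22.0%), and 4 and 1 (16.4% and 17.5%).

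Foxo1, a direct activator of the Rag genes in B cell precursors, was named after its values were seen, as were Ikzf1, Foxp1 and Pax5 below. It was at 362, 385 and 411 normalized CPM in wt, 277, 284 and 268 in Stat5a-/-, and 411, 424 and 422 in Stat5b-/-. The Stat5a-/- libraries were below all others (log2 fold change -0.48, edgeR adjusted p = 8.50e-04), and Stat5b-/- was at 0.12 against wt (adjusted p = 0.298). For Foxo1, no Stat5b-/- library was below a wt library. Ikzf1 (Ikaros) was lower in both knockout lines (log2 fold change -0.50 in Stat5a-/-, adjusted p = 0.00110, and -0.36 in Stat5b-/-, adjusted p = 0.00861). Foxp1, a forkhead factor, was higher in both (0.66, adjusted p = 8.09e-05, and 0.84, adjusted p = 7.94e-06). Pax5, the B-lineage commitment factor, was lower in Stat5b-/- (-0.39, adjusted p = 0.0445), with an adjusted p of 0.985 in Stat5a-/-.

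**Figure D4:**
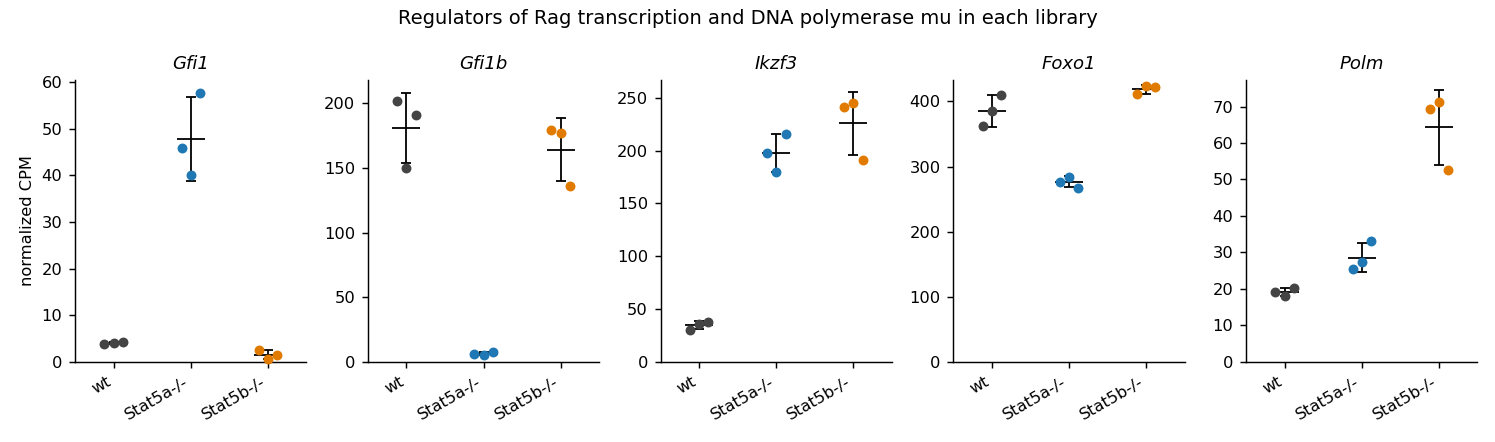
Normalized CPM of Gfi1, Gfi1b, Ikzf3, Foxo1 and Polm in each library (points), by line, with the mean and SD (n = 3) and axes from 0. Gfi1 is high only among the 3 Stat5a-/- libraries (mean 47.9), Gfi1b is low there (mean 6.15), Ikzf3 is above wt in both knockout lines, and Polm is highest in Stat5b-/-.

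The genes most like Rag1, Rag2 and Dntt over the 9 libraries were found by the Pearson correlation of log2 normalized CPM across all tested genes, as a description of 3 lines with 3 libraries each. Rag1 was followed most closely by the metal transporter gene Slc39a8 (r = 0.997), Aco1 (0.995), which encodes the iron-regulated cytosolic aconitase, and the transcription factor gene Tfap2a (0.995). Aco1 averaged 99.9 normalized CPM in wt, 18.5 in Stat5a-/- and 24.2 in Stat5b-/-, and Tfap2a averaged 19.9, 0.0805 and 0.236, so that Tfap2a approached 0 as the Rag genes did. Rag2 was followed by Tmem255a (0.997), the phospholipase gene Pla2g4a (0.995) and Nsf (0.993), and its correlation with Rag1 was 0.984. A correlation does not reflect the size of a change. In wt, Stat5a-/- and Stat5b-/-, Pla2g4a averaged 29.4, 0.636 and 2.38 normalized CPM. Slc39a8 averaged 9.02, 3.52 and 4.15 and Nsf 98.5, 59.5 and 65.2, far smaller falls than those of the Rag genes. For Dntt the closest were Tinf2 (0.990), which encodes a telomere protein, Smim20 (0.989) and the bicarbonate transporter gene Slc4a8 (0.988), which averaged 6.97, 2.02 and 19.2 normalized CPM. Dntt correlated with Rag1 at 0.237 and with Rag2 at 0.308.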

How the data were processed

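mRNA from 3 BCR/ABLp185+ cell lines (wt, Stat5a-/- and Stat5b-/-, 3 technical replicates each) was sequenced as 50 bp single-end reads from SENSE mRNA-Seq libraries. Per the file headers and the study's methods, the authors removed adapters, aligned the reads to GRCm38 with STAR and counted them on GENCODE M13 exons with featureCounts 1.5.1. The authors deposited raw counts per gene for 50686 genes, without normalization. Counting did not use strand, and reads on several genes or several places were left out, which lowers genes that overlap or have close copies. Samples were grouped by the genotype of their titles and labels; the free-text description of the knockout samples reads as wt, in conflict with these. The human samples of the study were not analysed here.

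Of the gene identifiers, 50376 were given a symbol from GENCODE M21. edgeR 4.0.16 in R 4.3.3 was used on the counts (TMM, filterByExpr, glmQLFit and glmQLFTest on all 9 libraries, 13852 genes tested, Benjamini-Hochberg adjustment over all of them). Calls were made at an adjusted p under 0.05 and, where stated, a change above 2-fold, the limits in the study's methods. SEs were derived by dividing the size of a log2 fold change by the root of its F statistic. Normalized CPM is the CPM on the TMM-scaled library total, and RPKM is that value per kilobase of exon. Within a line, the counts of libraries differed beyond counting noise (chi-square per degree of freedom 4.89 to 30.5), and each library was counted separately. Ratios were compared with exact permutation tests, and residual Rag reads with exact binomial 95% intervals, which cover counting error only because reads carried no molecular identifiers. The fits were tested on simulated data. Named genes were the 8 members, list genes past both limits in at least 1 comparison, tested genes within 200 kb of the Rag pair or Dntt, genes overlapping a member, and the 3 genes most correlated with Rag1, Rag2 and Dntt. Foxo1, Ikzf1, Foxp1 and Pax5 were added after their values were seen. The members, lists and cell type markers were chosen with earlier results of these data known. DESeq2 1.42.0, other normalizations, filters and thresholds, subsets of libraries, a replicate block, a T cell marker covariate and a GC content offset were alternatives.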

Additional observations from a re-analysis of the deposited data

Results flagged for a closer look

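Among the 8 genes and the lists of pathway genes, 2 were singled out because a gene passed the adjusted p against wt in both knockout lines, in opposite directions, and the direct comparison between the lines passed the test. Dntt was below wt in Stat5a-/- and above wt in Stat5b-/-, and its log2 fold change in Stat5b-/- against Stat5a-/- was 2.95 (edgeR adjusted p = 7.75e-09). Gfi1 was above wt in Stat5a-/- and below wt in Stat5b-/-, with a log2 fold change of -4.98 between the knockout lines (edgeR adjusted p = 2.64e-08). Each group had 3 libraries, so that no library was tested for lying apart from its group.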

How the results depend on the processing

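The number of the 8 genes called against wt, 3 in either knockout line, was 3 under every alternative with both limits, which for Rag1 and Rag2 follows from their passing the filter only through wt. Between the knockout lines the count of 3 became 1 (Dntt) in a fit of those lines alone, where Rag1 and Rag2 were removed by the low-count filter, 1 (Dntt) when the test was made against a 2-fold change, and 6 with the adjusted p alone. Under the other refits the log2 fold change of Rag1 ranged from -9.01 to -8.39 in Stat5a-/- and from -6.77 to -6.43 in Stat5b-/-, that of Rag2 from -9.33 to -8.02 and from -6.09 to -5.35, and that of Dntt from -1.70 to -1.5 and from 1.20 to 1.65. Replicate numbers did not pair the libraries: same-numbered libraries of different lines had a mean correlation of -0.0877 (-0.445 to 0.216). With a replicate block in the fit, the counts of called genes were 3, 3 and 3 as without it, and only the Xrcc5 call between the knockout lines was lost (log2 fold change -0.39, adjusted p = 0.0529). With the T cell marker sum as a covariate, calls between the knockout lines were lost for Prkdc (0.20, adjusted p = 0.712), Xrcc5 (-0.47, adjusted p = 0.230) and Xrcc6 (0.64, adjusted p = 0.0831), and Dclre1c passed in Stat5a-/- (-0.51, adjusted p = 0.0321). Over all genes, that covariate lowered the calls of Stat5b-/- against wt from 1471 higher and 1169 lower to 845 and 825, and those between the knockout lines from 666 and 914 to 419 and 664, while those of Stat5a-/- against wt went from 1074 and 899 to 1148 and 968. With a GC offset, added after seeing the data, Xrcc6 passed in both lines against wt (-0.27, adjusted p = 0.0439, and 0.27, adjusted p = 0.0352), but in neither with the GC offset and replicate block together (adjusted p = 0.0574 and 0.0526). The cause of these shifts was not tested. No direction of a call was reversed. Depth limits the residual Rag levels, which rest on 0 to 16 reads per knockout library: between the knockout lines the log2 fold change ranged over the refits from 1.78 to 2.40 for Rag1 and from 2.44 to 3.75 for Rag2.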
